A study of Mus musculus with 3 samples.

Results

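The genes described here are 37 genes of the lysosome and of autophagy, chosen by name for their known function and read in every library by gene symbol. Of these, 36 were measured, among 16610 genes in all, and Atp6v0d2 was not analysed here. All 36 had a mean of at least 20 normalised counts over the 3 libraries, the level required of a gene to enter the counts below, which 14906 genes reached. They comprise 5 lysosomal membrane proteins, 12 hydrolases, 2 cofactor precursors, 2 transcription factors, 5 parts of the proton pump, 5 genes for cargo capture and 5 for autophagosome formation.

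The RNA came from the middle section of a mouse brain hemisphere, taken after 3 days, in 3 libraries. The control library was the right hemisphere of animals without occlusion. The other libraries came from animals with 1 h of middle cerebral artery occlusion (MCAO, a stroke model in which a brain artery is blocked): the contralateral right hemisphere, and the left hemisphere on the side of the occlusion, called the MCAO left library here. In all of them RNA was isolated by RiboTag, which pulls down an epitope-tagged ribosomal protein with the transcripts it is translating, from a pool of 3 animals per group. The labels give no strain, age, sex or Cre driver, and only the title of the series speaks of astrocytes. Because there was no left hemisphere without MCAO, side and occlusion cannot be told apart.

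The libraries held 25930258 to 33886604 recovered reads. The 15 astrocyte identity markers had a median of 21522 normalised counts in the control and 22093 in MCAO left, and neuronal transcripts were also present. The 10 neuron markers summed to 204597 and 181414, and 9 of them were lower in MCAO left, with a median log2 difference of -0.18. With 1 library per group there is no replicate check and no p-value, and each interval below is a 95% counting interval of a ratio. In the contralateral library the sperm genes of a germ cell list summed to 9056 normalised counts, against 40.8 in the control and 32.8 in MCAO left. Most of the counts that use this library are therefore also given against the control alone. As in any bulk sample, fewer cells of a type and less RNA per cell cannot be told apart.

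Lysosomes are acidic organelles in which hydrolases break down proteins, lipids and sugar chains, and autophagy delivers the cell's own material to them inside a double membrane. A vacuolar proton pump (V-ATPase) keeps the lumen acidic, and the related transcription factors TFEB and TFE3 activate many genes of both systems through an E-box-like element near the transcript start. In brain, lysosomes are prominent in phagocytes that clear debris and are also used by neurons and glia for routine turnover.

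Promoter windows are shown first because the element through which TFEB is known to act can lie in them. RefSeq windows (GRCm38.p6), running from 250 bases before to 50 bases after a transcript start, were found for 32 of the 36 genes. The E-box CACGTG, a palindrome that reads the same on both strands, was present in windows of 12 of them (37.5%), against 8.09% of all 27025 genes with a window and 11.5% of those that reached the expression level required here. The longer palindrome TCACGTGA, which contains the E-box, was present in 4 genes (Gla, Mcoln1, Atp6v0d1 and Atp6v1a), or 12.5%, against 1.12% of all genes and 1.98% of those that reached the required level. The letters below are the 250 bases before the start, 5′ to 3′ on the strand of the gene, for the genes with the longer palindrome wholly before the start and for Lgmn, the gene with the largest difference in MCAO left among the others with an E-box. Capitals mark the longer palindrome, or the E-box in Lgmn.
Gla: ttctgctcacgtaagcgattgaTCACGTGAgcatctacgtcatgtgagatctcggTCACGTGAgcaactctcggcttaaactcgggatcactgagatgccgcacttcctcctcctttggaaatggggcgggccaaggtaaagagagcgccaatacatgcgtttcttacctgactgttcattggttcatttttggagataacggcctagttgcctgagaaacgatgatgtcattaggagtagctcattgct
Atp6v1a: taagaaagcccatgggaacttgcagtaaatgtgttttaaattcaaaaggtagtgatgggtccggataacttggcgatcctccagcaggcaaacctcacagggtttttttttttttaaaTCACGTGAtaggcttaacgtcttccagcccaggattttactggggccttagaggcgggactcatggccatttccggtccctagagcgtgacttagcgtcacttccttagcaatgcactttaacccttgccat
Mcoln1: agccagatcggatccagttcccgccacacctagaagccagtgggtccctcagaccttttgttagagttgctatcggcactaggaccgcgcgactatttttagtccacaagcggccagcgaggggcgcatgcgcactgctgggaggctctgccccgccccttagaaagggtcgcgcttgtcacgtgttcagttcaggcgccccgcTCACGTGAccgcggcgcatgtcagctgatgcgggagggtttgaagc
Lgmn: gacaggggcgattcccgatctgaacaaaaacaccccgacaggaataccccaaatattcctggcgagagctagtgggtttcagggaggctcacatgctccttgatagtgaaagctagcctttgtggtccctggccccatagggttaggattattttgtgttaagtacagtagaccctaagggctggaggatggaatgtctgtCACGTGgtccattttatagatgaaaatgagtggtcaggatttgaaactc
These windows lie at chrX:134601006-134601255 (minus strand) for Gla, chr16:44139260-44139509 (minus strand) for Atp6v1a, chr8:3500269-3500518 (plus strand) for Mcoln1 and chr12:102439093-102439342 (minus strand) for Lgmn in GRCm38.p6. The Gla window holds the longer palindrome at 2 places, and the Mcoln1 window also holds a plain E-box upstream of it, left in lower case. The Lgmn window is 1 of 2 listed for that gene, and the other held no E-box. The Lgmn and Atp6v1a windows shown lie inside the listed spans of these genes (chr12:102394082-102439728 and chr16:44085402-44139702). They thus precede a start that is not at the outer end of the gene. The same holds for the Atg7 window with an E-box. In the Lamp1 window the E-box occurred 4 times within 61 bases of the start. A match describes the letters only and does not show that a factor bound there.

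**Figure D1:**
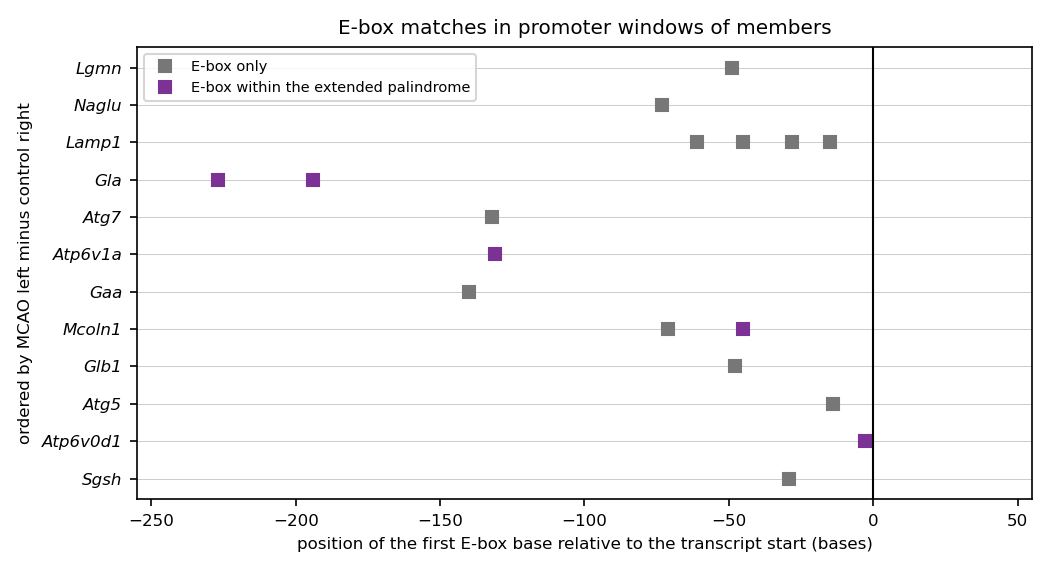
Positions of E-box matches in the promoter windows of the 12 members that hold it, in bases relative to the transcript start (vertical line), with genes ordered from the largest to the smallest log2 difference between MCAO left and control. Lamp1 holds 4 matches and Gla 2, and purple squares mark matches within the longer palindrome.

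The first question was whether the genes differed in the hemisphere with the occlusion. A small set of lysosomal genes was higher there, led by Gusb, Grn and Man2b1, whereas the autophagy genes and the proton pump genes were close to their levels in the right hemispheres. In MCAO left, 3 of 36 genes (8.33%) exceeded both right hemispheres by 2-fold or more, against 2.58% of all 14906 genes. At 1.5-fold the count was 7 of 36 (19.4%), against a background of 4.88%, and the additional genes were Lgmn, Cd63, Hexa and Naglu. No member was lower by 2-fold, where the background was 0.517%, or by 1.5-fold, where it was 2.22%. Without the contralateral library, 3 genes were 2-fold and 8 were 1.5-fold above the control, against backgrounds of 4.12% and 9.16%.

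By any amount, MCAO left was the highest of the 3 libraries for 23 of 36 members (63.9%), against 34.3% of all genes. Above the control alone were 27 of 36 members, against 7278 of all 14906 genes. With the libraries scaled to an equal median count of the 15 astrocyte markers, the count of highest members was 14 (38.9%, against 18.6% of all genes). This scaling matched the median alone. It raised the contralateral values, although the sum of these markers was already higher there than in the control (663179 against 630751). The median log2 difference of the markers in that comparison was 0.09 before the scaling. The median log2 difference of the members was 0.11 for MCAO left minus control and 0.15 for MCAO left minus contralateral, with all genes at 0.00 in both. With the astrocyte marker scaling, the second median was -0.03 and that of all genes was -0.18.

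**Figure D2:**
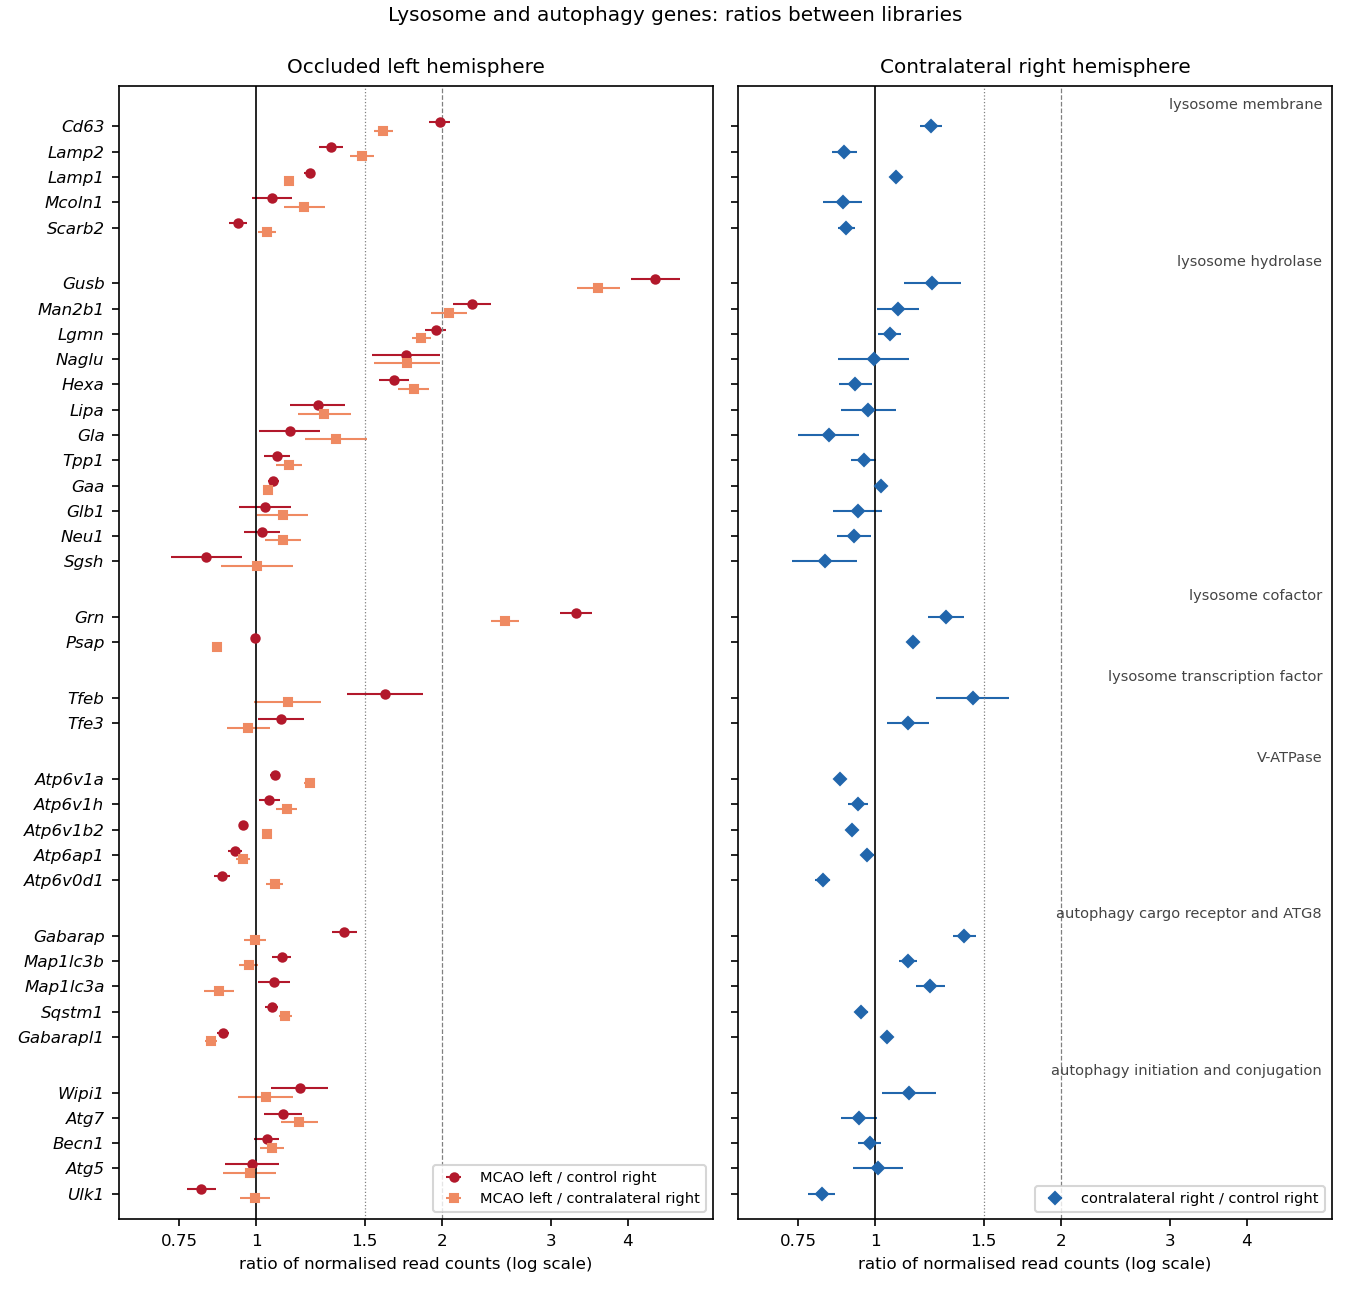
Ratios of normalised read counts for the 36 measured genes, grouped by role, on a log scale, with 95% counting intervals as bars. The left panel sets MCAO left against control (circles) and against the contralateral library (squares), and the right panel sets contralateral against control. Dotted and dashed lines mark 1.5-fold and 2-fold. Gusb and Grn lie farthest to the right, and no contralateral ratio passes 1.5.

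Among the hydrolases, 11 of 12 were highest in MCAO left, 2 by at least 2-fold and 5 by at least 1.5-fold over both right hemispheres. The shares of all genes were 34.3%, 2.58% and 4.88%. Against the control alone 11 of 12 were higher by any amount, as were 7278 of all 14906 genes. The counts at 2-fold and 1.5-fold were again 2 and 5, with backgrounds of 4.12% and 9.16%. With the astrocyte marker scaling 7 of 12 were highest, against 18.6% of all genes. Gusb, the β-glucuronidase that trims glycosaminoglycans (chr5:129989011-130003049), was measured at 592 normalised counts in control, 732 in contralateral and 2624 in MCAO left. The contralateral value was somewhat above the control, and MCAO left was well above both. The ratio was 4.43 to the control (4.05 to 4.86) and 3.59 to the contralateral library (3.31 to 3.89). Man2b1, the lysosomal α-mannosidase that takes apart glycoprotein sugars (chr8:85082730-85098739), had 1168, 1272 and 2611 in the same order. Its ratios were 2.24 (2.08 to 2.40) and 2.05 (1.92 to 2.19). The second ratio was near the 2-fold limit, and with the astrocyte marker scaling Man2b1 was no longer 2-fold above both.

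The next hydrolases lay between 1.5-fold and 2-fold. Lgmn, the cysteine protease legumain that also processes cathepsins (chr12:102394082-102439728), had 4095, 4321 and 8007 normalised counts. The right hemispheres differed little, and the ratio of MCAO left was 1.96 to the control (1.88 to 2.03) and 1.85 to the contralateral library (1.79 to 1.92). Hexa, the α subunit of the β-hexosaminidase that degrades GM2 ganglioside (chr9:59539540-59565109), had 2054, 1908 and 3432, with ratios of 1.67 (1.58 to 1.77) and 1.8 (1.7 to 1.9). Naglu, which acts in heparan sulphate breakdown (chr11:101070090-101077672), had 411, 408 and 718, with ratios of 1.75 (1.54 to 1.98) and 1.76 (1.56 to 1.99). For Naglu the right hemispheres were nearly equal. Of these genes, Lgmn and Naglu hold an E-box in a promoter window, for Lgmn only in the window that lies inside the gene.

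**Figure D3:**
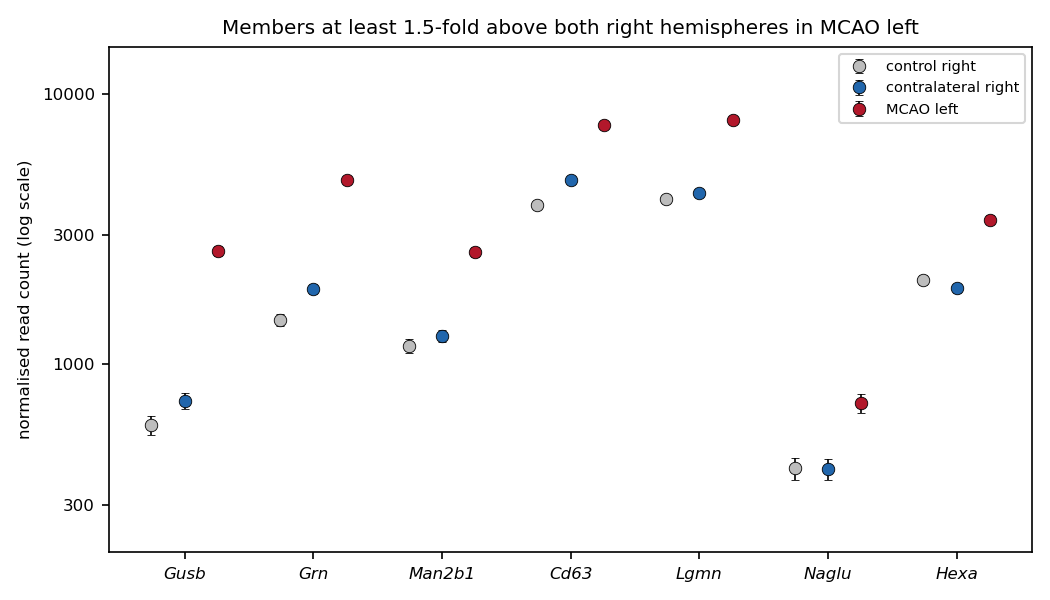
Normalised read counts, on a log scale, of the 7 members at least 1.5-fold above both right hemispheres in MCAO left, with 1 point per library and 95% counting error bars, which are often smaller than the point. In each gene the red point (MCAO left) lies above the grey (control) and blue (contralateral) points, from 718 for Naglu to 8007 for Lgmn.

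The other 7 hydrolases differed by less than 1.5-fold. Lipa, the acid lipase that frees cholesterol from its esters, had 722, 704 and 908 normalised counts, a ratio of 1.26 to the control (1.14 to 1.39). Gla, the α-galactosidase whose promoter is shown above, had 622, 523 and 705, with ratios of 1.13 (1.01 to 1.27) and 1.35 (1.2 to 1.51). Both were highest in MCAO left. Tpp1, a tripeptidyl peptidase, had 3429, 3286 and 3711, and Gaa, the acid α-glucosidase that degrades glycogen, had 20035, 20444 and 21365. Their ratios to the control were 1.08 (1.03 to 1.14) and 1.07 (1.05 to 1.09). Glb1, a β-galactosidase, had 877, 822 and 907, and Neu1, a sialidase, had 1845, 1707 and 1887. The intervals of their ratios to the control, 0.938 to 1.14 and 0.956 to 1.09, included 1. Sgsh, a sulphamidase of heparan sulphate breakdown, was the exception in direction, at 545, 452 and 453. It was lower in both libraries of the MCAO animals, at 0.831 of the control in MCAO left (0.728 to 0.947). Naglu and Sgsh, which both act on heparan sulphate, thus differed from the control in opposite directions.

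The cofactor precursors had different patterns. Grn, which encodes progranulin, a secreted and lysosomal precursor of granulins (chr11:102430507-102436809), had 1461, 1902 and 4813 normalised counts. The contralateral value was above the control and the MCAO left value was above both. The ratio of MCAO left was 3.3 to the control (3.11 to 3.5) and 2.53 to the contralateral library (2.40 to 2.67). Psap, the precursor of saposins that help hydrolases reach lipids, had 68715, 79065 and 68445. Its MCAO left value was 0.996 of the control (0.985 to 1.01), and the contralateral library was the highest of the 3.

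Among the lysosomal membrane genes, Cd63, a tetraspanin of late endosomes and exosomes (chr10:128896231-128912822), stood apart with 3901, 4810 and 7735 normalised counts. The ratio of MCAO left was 1.98 to the control (1.91 to 2.06) and 1.61 to the contralateral library (1.55 to 1.67). With the astrocyte marker scaling Cd63 was no longer 1.5-fold above both. Lamp2, a membrane glycoprotein needed for fusion and chaperone-mediated autophagy, had 3524, 3140 and 4664, with ratios of 1.32 (1.26 to 1.38) and 1.49 (1.42 to 1.55). Lamp1, its abundant relative, had 18776, 20295 and 22944, with ratios of 1.22 (1.2 to 1.25) and 1.13 (1.11 to 1.15). Both were highest in MCAO left by modest amounts. Mcoln1, the lysosomal calcium channel whose promoter is shown above, had 1475, 1306 and 1564, and its interval against the control, 0.985 to 1.14, included 1. Scarb2, the receptor that carries glucocerebrosidase to lysosomes, had 7568, 6797 and 7079, at 0.935 of the control (0.904 to 0.967).

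The transcription factor Tfeb (chr17:47737037-47792416) had 341, 491 and 552 normalised counts. Both libraries of the MCAO animals were above the control, at 1.62-fold for MCAO left (1.41 to 1.86) and 1.44-fold for the contralateral library (1.26 to 1.65). The ratio between these 2 libraries was 1.12, and its interval, 0.992 to 1.27, included 1. Tfe3 had 1123, 1270 and 1233, with ratios to the control of 1.10 (1.01 to 1.19) in MCAO left and 1.13 (1.05 to 1.22) in contralateral. Of 19 other measured genes of TFEB relatives and mTORC1 nutrient sensing, the pathway that holds TFEB in the cytoplasm, none was 1.5-fold above both right hemispheres and 1 was 1.5-fold below both, where the background is 2.22%. This was Foxo3, a transcription factor of autophagy genes, with 448, 368 and 213, at 0.475 of the control (0.398 to 0.565) and 0.578 of the contralateral library (0.483 to 0.69). Rragd, a GTPase that recruits mTORC1 to lysosomes, had 6435, 5127 and 4705, and the median log2 difference of this list from the control was -0.01.

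The genes of the V-ATPase were nearly level. Atp6v1a, the catalytic subunit whose promoter is shown above, had 19270, 16923 and 20680 normalised counts, with ratios of 1.07 to the control (1.05 to 1.10) and 1.22 to the contralateral library (1.2 to 1.25). Atp6v1b2, the partner of the catalytic subunit, had 32671, 29912 and 31153, and Atp6v1h, a regulatory subunit, had 5093, 4774 and 5353. Their ratios to the control were 0.954 (0.938 to 0.969) and 1.05 (1.01 to 1.09). All 5 measured pump genes were lower in contralateral than in control, as were 7535 of all 14906 genes. With the astrocyte marker scaling 3 of 5 were above the control, as were 10305 of 14950 genes. Atp6v0d1, of the membrane sector, had 10067, 8285 and 8876, at 0.882 of the control in MCAO left (0.856 to 0.908) and 0.823 in the contralateral library (0.800 to 0.846). The accessory gene Atp6ap1 had 12468, 12115 and 11539. Of 15 other measured pump subunits, 1 was 1.5-fold above both right hemispheres, a share near the background of 4.88%. This was Tcirg1, an isoform known from osteoclasts and immune cells, with 237, 252 and 392, a ratio of 1.65 to the control (1.4 to 1.95), and it was not 1.5-fold above both with the astrocyte marker scaling. Atp6v0e, a small membrane subunit, had 710, 917 and 1122. Against the control alone 2 of the 15 other subunits were 1.5-fold higher, where the background was 9.16%.

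None of the 10 autophagy members was 1.5-fold above or below both right hemispheres, where the backgrounds of 4.88% and 2.22% correspond to less than 1 gene in a list of this size. Sqstm1, the cargo receptor p62, had 13120, 12469 and 13902 normalised counts, at 1.06-fold the control (1.03 to 1.09). The ATG8 proteins coat the growing autophagosome membrane. Of these, Gabarap had 3315, 4624 and 4609, Map1lc3b had 6097, 6893 and 6705, and Map1lc3a had 2330, 2862 and 2490. All 3 were higher in both libraries of the MCAO animals than in the control. Map1lc3a was highest in the contralateral library, and the intervals of MCAO left against contralateral for Gabarap (0.956 to 1.04) and Map1lc3b (0.94 to 1.01) included 1. Gabarap was 1.39-fold the control in MCAO left (1.33 to 1.46) and 1.39-fold in the contralateral library (1.34 to 1.46). Gabarapl1 had 18277, 19128 and 16165 and was lowest in MCAO left, at 0.884 of the control (0.865 to 0.904) and 0.845 of the contralateral library (0.827 to 0.863).

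The genes that start and build the autophagosome differed little. Ulk1, the kinase that starts autophagy, had 3188, 2611 and 2597 normalised counts, and was at 0.815 of the control in MCAO left (0.771 to 0.860) and at 0.819 in the contralateral library (0.779 to 0.861). Becn1, of the lipid kinase complex, had 3942, 3866 and 4098, and Wipi1, which reads the lipid it makes, had 677, 768 and 796. Atg7, which activates ATG8 proteins for lipid conjugation, had 1646, 1549 and 1820, and Atg5, part of the conjugating complex, had 843, 851 and 830. The intervals of Becn1 (0.993 to 1.09) and Atg5 (0.891 to 1.09) against the control included 1. Those of Atg7 (1.03 to 1.18) and Wipi1 (1.06 to 1.31) lay above it. Of 36 other autophagy genes, none was 1.5-fold above or below both right hemispheres, against the same backgrounds of 4.88% and 2.22%. MCAO left was the highest library for 7 of them and the lowest for 17, where the backgrounds were 34.3% and 35.0%. With the astrocyte marker scaling it was highest for 2, or 5.56%, against 18.6%. Above the control alone were 11 of 36, against 7278 of all 14906 genes. The list had a median log2 difference of -0.13 to the control. In this list the largest differences from the control were those of Atg3, a conjugating enzyme, with 941, 1080 and 1201, Ambra1, a scaffold of the initiation complex, with 2799, 2288 and 2206.

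Other lysosomal genes, listed apart from the members, varied by class. Of 27 further hydrolases and cofactors that reached the required level, 19 were highest in MCAO left, against 34.3% of all genes. At least 2-fold above both right hemispheres were 2 of them (7.41%, against 2.58%). At 1.5-fold the count was also 2, near the background of 4.88%. Against the control alone, 22 of 27 were higher by any amount, as were 7278 of all 14906 genes. By 2-fold 2 were higher, where the background was 4.12%. Among these was Galns, a sulphatase of keratan sulphate, which had 247, 233 and 512 normalised counts, a ratio of 2.07 to the control (1.77 to 2.43). Of 22 further membrane and transport genes, 3 were at least 2-fold above both (13.6%, against 2.58%). They were Gpnmb at 58.1, 63.9 and 471, Cd68 at 92.0, 147 and 818, and Laptm5 at 650, 529 and 1446. All 3 are known from phagocytes. At 1.5-fold the count was 4 of 22 (18.2%, against 4.88%), with Slc11a1 added at 28.1, 69.2 and 128. The list of 22 as a whole had a median log2 difference of 0.01 to the control. Of the 12 cathepsins, the lysosomal proteases, 6 were at least 2-fold above both and 6 above the control alone, against 2.58% and 4.12% of all genes. Ctsd was at 15654, 16040 and 48035.

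Most markers of microglia and phagocytes were higher in the same library as these lysosomal genes. Of 14 microglia markers, 10 were at least 2-fold above both right hemispheres, against 2.58% of all genes. Not among them were P2ry12, Tmem119 and Siglech, at 1.03, 1.24 and 1.29 of the control in MCAO left. Aif1 was highest in the contralateral library, with 79.4, 259 and 159 normalised counts in control, contralateral and MCAO left. The 14 markers summed to 10678, 10824 and 31831 in the same order, with none listed at the minimum of 1. Of 10 macrophage and activated phagocyte markers that reached the required level, 8 were 2-fold above both, and the sum over all 11 was 2627, 2828 and 16517. Against the control alone the 2-fold counts were 10 and 8 as well, where the background was 4.12%. For the membrane and transport genes that count was 4 in place of 3. Fcgr4 was listed at the minimum in the control and Ms4a7 in the contralateral library. The lists overlap in part, and Gpnmb and Cd68 belong to both the phagocyte and the membrane lists. None of the 15 astrocyte identity markers was 1.5-fold from both right hemispheres, and their sum was 630751, 663179 and 597564. Of 9 oligodendrocyte markers 2 were 1.5-fold above both, where the background was 4.88%, with sums of 124984, 105172 and 159876. Against the control alone, 1 of 15 astrocyte and 3 of 9 oligodendrocyte markers were 1.5-fold higher, where the background was 9.16%. The part of any of these cell types in the higher lysosomal genes was not tested.

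**Figure D4:**
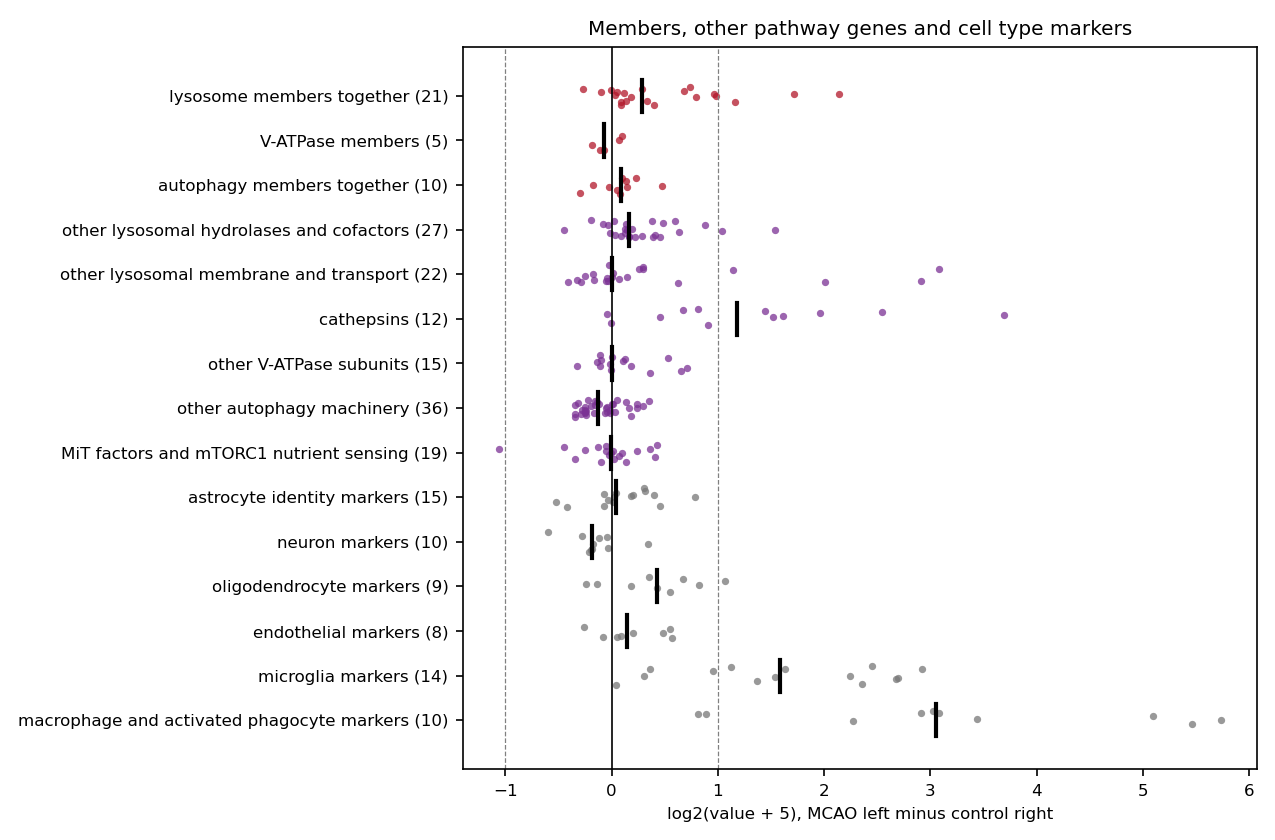
Log2 differences between MCAO left and control, on the log2(value + 5) scale, for the members (red), other pathway genes (purple) and cell type markers (grey), with 1 point per gene, the number of genes in brackets and black bars for medians. Dashed lines mark 2-fold. The members of the lysosome have a median of 0.29 and those of autophagy of 0.09, while the microglia and phagocyte markers have medians of 1.59 and 3.05.

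The second question was whether the hemisphere opposite the occlusion differed from a control hemisphere of the same side. No member reached 2-fold or 1.5-fold in either direction, where 5.53% and 10.7% of all genes did. Most of those genes were higher in the contralateral library, 771 against 54 lower at 2-fold and 1256 against 336 at 1.5-fold. This is the library with the sperm genes. The members were also more abundant, with a median of 3252 normalised counts in the control against 695 for all genes. Of 36 members, 27 lay within 1.2-fold of the control, against 62.5% of all genes. Of the 9 outside, 6 were higher in the contralateral library, led by Tfeb at 1.44-fold, Gabarap at 1.39-fold and Grn at 1.3-fold (1.22 to 1.39). Gusb at 1.24-fold (1.11 to 1.38), Cd63 at 1.23-fold (1.18 to 1.28) and Map1lc3a at 1.23-fold (1.16 to 1.3) came next. The 3 that were lower were Ulk1, Atp6v0d1 and Sgsh, the last at 0.828 of the control (0.733 to 0.935). Of 36 members 16 were above the control, against 7368 of all 14906 genes. With the astrocyte marker scaling 28 of 36 were above it, against 10305 of the 14950 genes at the required level. This scaling moved the median of all genes by 0.14, so the direction of small differences in this comparison depends on the scaling.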

How the data were processed

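The authors deposited a table of genes by libraries. Its unit is a signal: read counts that the authors divided by 1 size factor per library, with values below 1 listed as 1. Tools listed in the submitters' processing notes, without their roles, are HISAT2 2.0.11, CASAVA 1.8, R 3.3.1, Partek 6.6 and DESeq2, with the build mm10. Per the series design, each pool had 2 technical replicates, whose values are combined in its column. Whether counting used strand is not given in the sources used here. Overlapping genes may therefore share reads.

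Columns were matched to samples by the sample descriptions. The worth of 1 read was found per column (0.969, 0.887 and 1.18 normalised counts for control, contralateral and MCAO left), and 99.9% of values above 1 were whole reads within 0.1. Ratios are of normalised counts, with exact Clopper-Pearson 95% intervals from these reads (scipy 1.17.1). These intervals reflect counting alone, and without molecular identifiers several reads can stem from 1 molecule. Counts of genes past a fold and medians use log2(value + 5), which understates differences of low genes, and genes with a mean of at least 20. The procedure was tested on simulated reads with counting error alone and planted changes larger than 2-fold. Smaller changes and the spread between pools were not covered.

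The members and gene lists were chosen with earlier results of these data known, so their shares against the background are descriptions. All members are named. Of each other pathway list, up to 4 genes at least 2-fold from both right hemispheres are named, or else the 2 farthest from the control. Only Ctsd is named of the cathepsins, and other genes are named as exceptions. Some genes of the lists are not reported here. Lists covered further hydrolases, membrane proteins, pump subunits, autophagy and nutrient sensing genes, and markers of astrocytes, neurons, microglia, phagocytes, oligodendrocytes, endothelium and germ cells. Of 8 endothelial and 10 neuron markers, none was 1.5-fold above or below both right hemispheres, where the backgrounds were 4.88% and 2.22%. None was 1.5-fold above the control alone, where the background was 9.16%. Below the control alone by 1.5-fold was 1 neuron marker, Syt1 (34548, 26043 and 22789), and no endothelial marker, against 772 of all 14906 genes. A comparison of protein sequences was planned and not made. Coordinates and promoter windows are from RefSeq for GRCm38.p6, the assembly called mm10. Alternatives were other pseudocounts, no filter, scaling by total reads, scaling to the median astrocyte marker count, a 1.5-fold limit and leaving out the contralateral library.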

Additional observations from a re-analysis of the deposited data

How the results depend on the processing

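The count of members 2-fold higher in MCAO left was 3 under pseudocounts of 1 and 20, no filter, scaling by total reads and leaving out the contralateral library, and 2 under the astrocyte marker scaling. The counts of 2-fold lower members and of members past 2-fold in the contralateral comparison were 0 in every one of these settings that applies to them. A 1.5-fold limit gave 7 higher members. The astrocyte marker scaling gave 14 members highest in MCAO left in place of 23, and a median log2 difference from the contralateral library of -0.025 in place of 0.15. The median difference of the contralateral library from the control was -0.03 and had the other sign with scaling by total reads (0.0040) and with the astrocyte marker scaling (0.11), which moves all genes by 0.14 in that comparison by construction. The 1.5-fold count of 7 was 6, 7 and 8 with the astrocyte marker scaling, with scaling by total reads and without the contralateral library, settings chosen after seeing the data, as were those of the count of highest members. No paired analysis was possible because each group has 1 library, and for the same reason no library of a group could be left out in turn. Counting error is small for these genes, and the spread between animals is unknown.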

Other observations

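Genes of the Ragulator complex, which anchors mTORC1 nutrient sensing on lysosomes, were chosen after their values were seen. Lamtor4 was measured at 655 normalised counts in control, 922 in contralateral and 880 in MCAO left. Lamtor5 had 692, 964 and 921, and Lamtor2 had 926, 1196 and 1189. Like Gabarap and Tfeb, these 3 genes were higher in both libraries of the MCAO animals than in the control, and the 2 libraries of the MCAO animals lay within 1.2-fold of each other for each of them. The small pump subunit gene Atp6v1g1, chosen in the same way, had 2504, 3535 and 3629. Whether this difference belongs to the animals or to the control library cannot be told apart with 1 pool per group.

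The E-box was also counted by difference in MCAO left. Of the 7 members at least 1.5-fold above both right hemispheres, 2 (Lgmn and Naglu) held the E-box and none the longer palindrome. Of the other 25 members with a window, 10 held the E-box and 4 the longer palindrome. Of 534 genes of the whole table that were 1.5-fold above both and had a window, 8.61% held the E-box, against 11.5% of the 11328 genes with a window that reached the required level. These shares are descriptions of few genes and were not tested against each other, and the windows cover only the bases next to the transcript start.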
